A study of Arabidopsis thaliana with 10 samples.

Results

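AP1, CAL, FUL and AGL79 form one branch of the MADS-box family of plant transcription factors, and their transcripts were followed across 10 microarrays of whole Arabidopsis thaliana seedlings. Members were the probes whose accession maps to AT1G69120 (AP1), AT1G26310 (CAL), AT5G60910 (FUL, listed by RefSeq as AGL8) or AT3G30260 (AGL79). AP1 and AGL79 had 1 probe each, and CAL and FUL had 2 each, which made 6 of 43603 probes and 4 of the 25433 loci on the array. All 4 genes and all 6 probes passed the filter on dim probes.

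The seedlings had been raised on agar with sucrose under short days and were harvested at 7 or 15 days. WT is the wild type. LFYasEMF1 carries antisense RNA against EMF1, a Polycomb-associated protein that keeps flower genes silent in seedlings, under the promoter of the floral gene LFY, so the antisense RNA is made only where that promoter is active. The line ult1-3 carries a mutant allele of ULT1, a SAND-domain protein counted among the trithorax group and known to promote AG expression in flowers, and LFYasEMF1/ult1-3 combines the transgene and the mutant allele. WT had 2 arrays at each age and every other line had 1 at each age, so 10 arrays fell into 8 groups; the labels do not say whether arrays stand for separate plantings or how many seedlings were pooled.

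AP1 specifies the identity of floral meristems and, later, of sepals and petals. CAL is its close paralog and overlaps with it in specifying floral meristems. FUL is known for 3 roles: it promotes flowering, it acts with AP1 and CAL in floral meristems, and it patterns the fruit wall. AGL79 is the least studied member of the branch. In the wild type, AP1 and CAL are switched on only when flowers are initiated, while FUL comes on earlier, in the shoot apex and leaves as flowering is induced. Activation of AP1 is known to run through LFY, through FT with its partner FD, and through SPL factors.

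Signals were divided by the 75th percentile of signal on their array and put on a log2 scale, so a level of 0 equals that percentile and a level of −10 lies close to the bottom of the scale. The software marked each spot as well above background or not. The lowest level so marked ran from −8.59 (WT replicate 2 at 15 days) to −6.73 (ult1-3 at 7 days), so marks can differ between arrays at like levels. Levels are compared only within a probe, never between probes. The percentile ran from 3723 to 5996, between 71.7% and 80.1% of spots were well above background, and precision is limited by how few arrays there are. Leaf markers (4 of 4) and root markers (6 of 6) were well above background on every array, and the summed signal of 4 shoot meristem markers lay between 0.409 and 0.883 times the percentile. By the scan headers 3 slides were used. WT replicate 1 and LFYasEMF1, at either age, were on slide 1, while the second WT replicate, ult1-3 and LFYasEMF1/ult1-3 were on slide 2 at 7 days and on slide 3 at 15 days. The slides stood apart in clock transcripts: log2 levels of LHY, a morning gene, ran from −5.99 to −2.27 on slide 1 and from 1.37 to 3.18 elsewhere. LFYasEMF1 is therefore compared with the WT array of its own slide beside each pooled value.

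The targeted genes were read on every array as a check of the labels. EMF1 levels were −3.06 and −1.80 in WT, −1.71 in LFYasEMF1, −2.55 in ult1-3 and −3.10 in LFYasEMF1/ult1-3 at 7 days. At 15 days they were −1.55 and −1.29 in WT, −0.48 in LFYasEMF1, −1.73 in ult1-3 and −1.62 in LFYasEMF1/ult1-3. EMF1 was thus higher, not lower, on the arrays labelled LFYasEMF1 than on the WT arrays of their age, so the EMF1 probe does not show the knockdown and the line names below stand for the labels. ULT1 lay between −0.95 and −0.16 on the WT arrays and at −0.23 and −0.83 in LFYasEMF1. Its level was −2.33 and −2.76 in ult1-3, and −6.45 and −5.81 in LFYasEMF1/ult1-3, where 1 of the 2 arrays was well above background. ULT1 was lower in the combined line than in ult1-3 itself, by −3.59 ± 0.41 on the log2 scale (limma adjusted p = 0.0125), although both are labelled with the same allele; the cause was not tested.

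AP1 was high in both LFYasEMF1 arrays, intermediate in both LFYasEMF1/ult1-3 arrays and at background in WT and ult1-3. At 7 days its log2 level was −7.58 and −10.01 in the WT replicates, −1.20 in LFYasEMF1, −8.86 in ult1-3 and −5.35 in LFYasEMF1/ult1-3. At 15 days it was −9.60 and −8.65 in the WT replicates, −0.18 in LFYasEMF1, −9.46 in ult1-3 and −3.57 in LFYasEMF1/ult1-3. In processed signal the probe read 2277 and 4905 in LFYasEMF1, 91.1 and 402.6 in LFYasEMF1/ult1-3, and 27.2 or less on each of the other 6 arrays. Only the 4 arrays of the lines with the transgene were well above background, and they did not overlap with the other 6. The 6 arrays at background have no order among themselves, and the WT replicates at 7 days differed by 2.43 there.

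CAL was also highest on both LFYasEMF1 arrays. The probe used for the gene, the brighter of the pair, read −7.52 and −8.65 in WT, −3.97 in LFYasEMF1, −8.52 in ult1-3 and −7.14 in LFYasEMF1/ult1-3 at 7 days. Its log2 levels at 15 days were −8.18 and −7.40 in WT, −3.52 in LFYasEMF1, −8.72 in ult1-3 and −5.86 in LFYasEMF1/ult1-3. It was well above background on 4 arrays, namely both LFYasEMF1 arrays, LFYasEMF1/ult1-3 at 15 days and WT replicate 2 at 15 days. That WT array, at −7.40, was dimmer than the unmarked LFYasEMF1/ult1-3 array at 7 days, at −7.14. The lowest marked level was −8.59 on the former and −6.80 on the latter. The other CAL probe was also highest in LFYasEMF1, at −5.88 and −4.56. In LFYasEMF1/ult1-3, however, that probe was at background at both ages, at −8.84 and −7.92, so the intermediate level of CAL in the combined line rests on 1 of 2 probes and on 1 array above background.

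FUL was the one member well above background on most WT arrays, 3 of 4. At 7 days its levels were −7.96 and −5.18 in WT, −5.44 in LFYasEMF1, −5.42 in ult1-3 and −4.06 in LFYasEMF1/ult1-3. By 15 days they were −6.04 and −3.95 in WT, −1.05 in LFYasEMF1, −4.50 in ult1-3 and −2.44 in LFYasEMF1/ult1-3. LFYasEMF1 and LFYasEMF1/ult1-3 at 15 days had the highest levels, in that order, and WT replicate 1 at 7 days had the lowest and was the only array not well above background. The WT means were −6.57 ± 1.97 (SD, n = 2) at 7 days and −4.99 ± 1.47 (SD, n = 2) at 15 days, and the arrays between the extremes did not separate beyond this spread. In WT, slide 1 was lower than the other slide by 2.78 at 7 days and 2.09 at 15 days. The other FUL probe gave the same extremes, −1.11 in LFYasEMF1 at 15 days and −8.33 in WT replicate 1 at 7 days.

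AGL79 was dim throughout. Its 7-day levels were −9.45 and −9.84 in WT, −6.59 in LFYasEMF1, −8.56 in ult1-3 and −8.89 in LFYasEMF1/ult1-3. Those at 15 days were −9.44 and −8.20 in WT, −7.32 in LFYasEMF1, −9.25 in ult1-3 and −9.25 in LFYasEMF1/ult1-3. The LFYasEMF1 arrays were the highest of the 10, with processed signals of 54.5 and 34.7, and WT replicate 2 at 15 days, at 18.9, was the only other array well above background. No order can be given for the remaining 7.

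**Figure D1:**
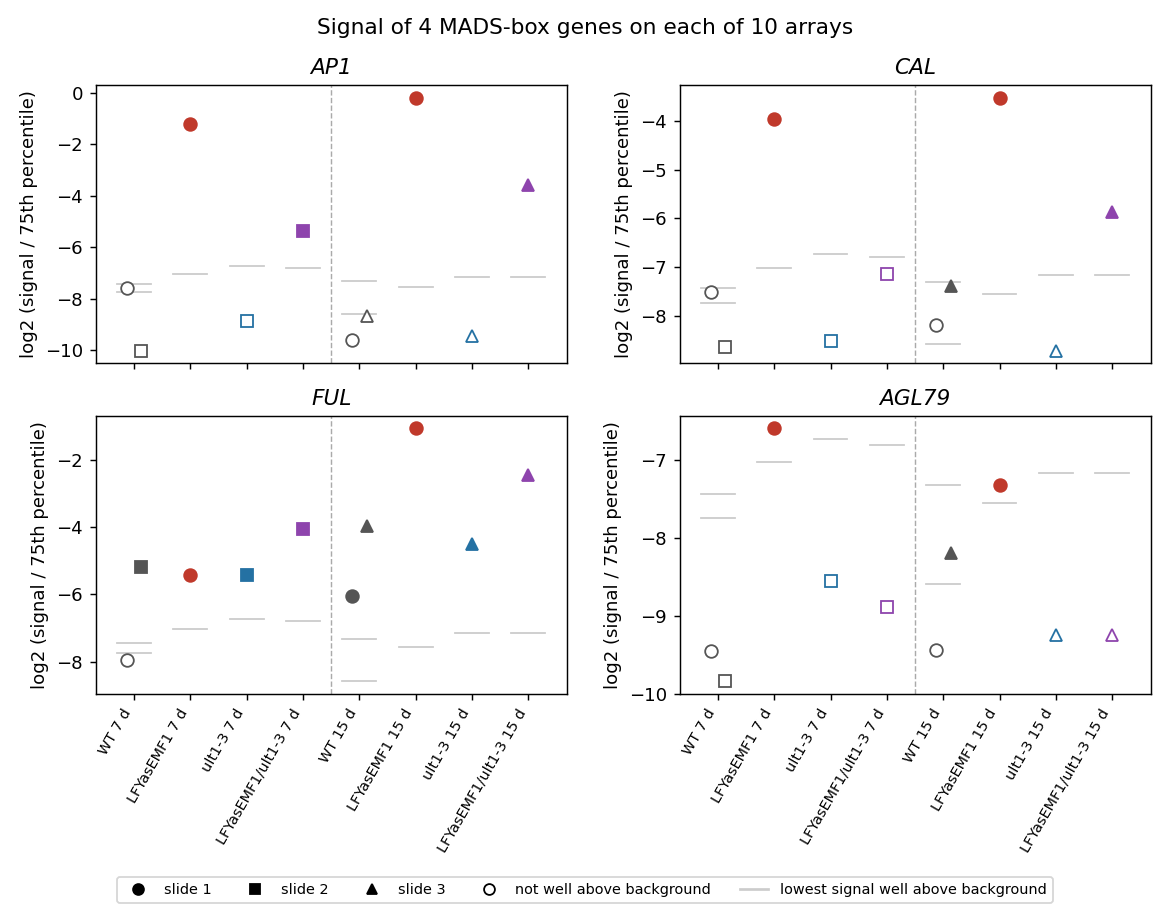
Log2 level (signal over the array's 75th percentile) of AP1, CAL, FUL and AGL79 on each of 10 arrays, by group, with 7 days left and 15 days right of the dashed line. Shapes give the slide, open symbols are arrays not well above background, and grey lines mark the lowest signal well above background on that array; AP1 is filled on 4 arrays only, both LFYasEMF1 and both LFYasEMF1/ult1-3.

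The first comparison asked how the transgene alone altered these genes. AP1 and CAL rose in LFYasEMF1, FUL and AGL79 were higher without passing the test, and the levels of AP1, CAL and AGL79 did not overlap with WT. Over both ages AP1 was at least 135-fold higher than WT, with a fitted log2 difference of 8.27 ± 0.76 (SE; limma adjusted p = 0.00152). CAL was 18.3-fold higher, by 4.19 ± 0.43 (limma adjusted p = 0.00251), although only 1 of 4 WT arrays measured it. Its other probe rose too, by 3.10 ± 0.53 (limma adjusted p = 0.0328 over all probes). So 2 of 4 members rose, where 0.926% of the 22353 genes tested were called higher in this comparison and 1.68% in either direction; groups that do not overlap, with the mutant higher, occurred in 8.32% of genes.

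FUL differed from WT by 2.54 ± 0.99 over both ages (95% interval 0.24 to 4.83; limma adjusted p = 0.361), and LFYasEMF1 at 7 days lay inside the WT range. With slide as a term in the fit the difference was 3.76 ± 0.57, and it passed the test (limma adjusted p = 0.0409). It did not pass with slide 1 against the other slides as the term (adjusted p = 0.0885) or among the slide 1 arrays alone (adjusted p = 0.0751). AGL79 differed by 2.28 ± 0.49 (limma adjusted p = 0.0798; 4.85-fold, with 1 of 4 WT arrays measured). It did not pass with slide as a term (2.49, adjusted p = 0.122) or with slide 1 against the other slides (adjusted p = 0.122). Among the slide 1 arrays alone AGL79 differed by 2.49 (adjusted p = 0.0461), and without WT replicate 2 at 15 days by 2.68 (adjusted p = 0.0124), which passed.

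Against the WT array of the same slide and age, the signal of every member was higher in LFYasEMF1 at both ages. AP1, CAL and AGL79 were not well above background on either of these WT arrays, nor was FUL at 7 days, so these differences rest on background signals. AP1 stood 6.38 higher at 7 days and 9.42 higher at 15 days on the log2 scale. CAL was higher by 3.55 and 4.66, FUL by 2.53 and 4.98, and AGL79 by 2.87 and 2.11. AGL79 at 15 days in LFYasEMF1, at −7.32, was no brighter than the lowest signal well above background on the WT array, −7.31, so its difference there has no lower bound. For comparison, the WT replicates of an age differed by up to 2.43 for AP1, 1.12 for CAL, 2.78 for FUL and 1.24 for AGL79. The replicates lie on different slides, so these values also hold any difference between slides. Most of these WT readings were also at background, FUL being measured in both replicates at 15 days alone.

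At single ages, where the spread comes from the WT pairs alone and the lone mutant array is assumed to vary like them, 1 of the 4 genes passed. AP1 at 15 days was at least 218-fold higher in LFYasEMF1 than in WT (log2 difference 8.95 ± 1.06, limma adjusted p = 0.0454), where 0.264% of genes were called. This call was lost with quantile normalization (adjusted p = 0.0667) and without either WT array of that age (8.47 without replicate 1, 9.42 without replicate 2). At 7 days AP1 was at least 83.4-fold higher and missed the threshold (limma adjusted p = 0.0854), where 0.237% of genes were called, while it passed without WT replicate 1 (8.81) or replicate 2 (6.38) of that age.

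Other floral genes moved beside these members. Of the 7 MADS genes whose products are known to form complexes with AP1 or to specify the inner floral organs, 6 rose in LFYasEMF1, with a median log2 difference of 5.96 against 0.00 over all genes. SEP2, a cofactor in all floral organs, was 429.9-fold higher, with 1 of 4 WT arrays measured, AP3, a petal and stamen gene, at least 168.6-fold, AG, which specifies stamens and carpels, 62.4-fold, and PI, the partner of AP3, 34.6-fold. With slide as a term 5 of the 6 passed, and SEP3 did not (adjusted p = 0.0567). A list of 7 floral organ markers, which shares AP3, PI and AG with the former list, summed to between 0.090 and 0.202 times the percentile in WT and to 5.05 and 6.29 in LFYasEMF1. These markers numbered 4 of 7 well above background on each WT array and 7 of 7 on each LFYasEMF1 array; their part in the rise of AP1 and CAL was not tested. In bulk seedlings, more cells with a transcript and more transcript per cell cannot be told apart.

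None of the 16 measured activators of the group passed the test in LFYasEMF1 over both ages, and their median difference was 0.34. SPL3, a direct activator of AP1, FUL and LFY, differed by 1.55 ± 0.32 (95% interval 0.80 to 2.30; limma adjusted p = 0.0714). AGL24, a MADS factor that acts with SOC1, differed by 1.64 ± 0.42 (0.67 to 2.60; limma adjusted p = 0.135). Both were named after their values were seen. LFY itself, the direct activator of AP1 and CAL, differed by 0.20 ± 0.51 (limma adjusted p = 0.909) and overlapped with WT. It was well above background on 2 of 4 WT arrays, at −6.56 and −8.01. On neither LFYasEMF1 array was it so marked, at −7.08 and −7.63, so the marks do not show a fall. FT, the mobile flowering signal, differed by 2.22 ± 1.32 (limma adjusted p = 0.578), with −9.01 at 7 days and −0.32 at 15 days in LFYasEMF1. Of 7 measured repressors, TFL1, a shoot identity gene that opposes AP1, was the 1 called, higher by 2.16 ± 0.38 (limma adjusted p = 0.0359). With slide as a term its adjusted p was 0.0957. The repressors FLC, at 2.39 ± 0.47 (limma adjusted p = 0.0579), and TEM1, at 1.13 ± 0.29 (limma adjusted p = 0.142), did not pass, did not overlap with WT and were named after their values were seen. TFL1, FLC and TEM1 were the only 3 of the 7 repressors that were higher, and the median difference of the list was −0.05. EMF1, the target of the antisense RNA, was 1.78-fold higher, by 0.83 ± 0.36 (limma adjusted p = 0.426). The slide term gave 1.21 for EMF1 (adjusted p = 0.123), and none of 7 measured Polycomb and trithorax genes was called. The fruit genes SHP1 and SHP2, which FUL is known to repress in the fruit wall, rose 19.4-fold and 35.8-fold, and they were 2 of 5 fruit genes called.

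**Figure D2:**
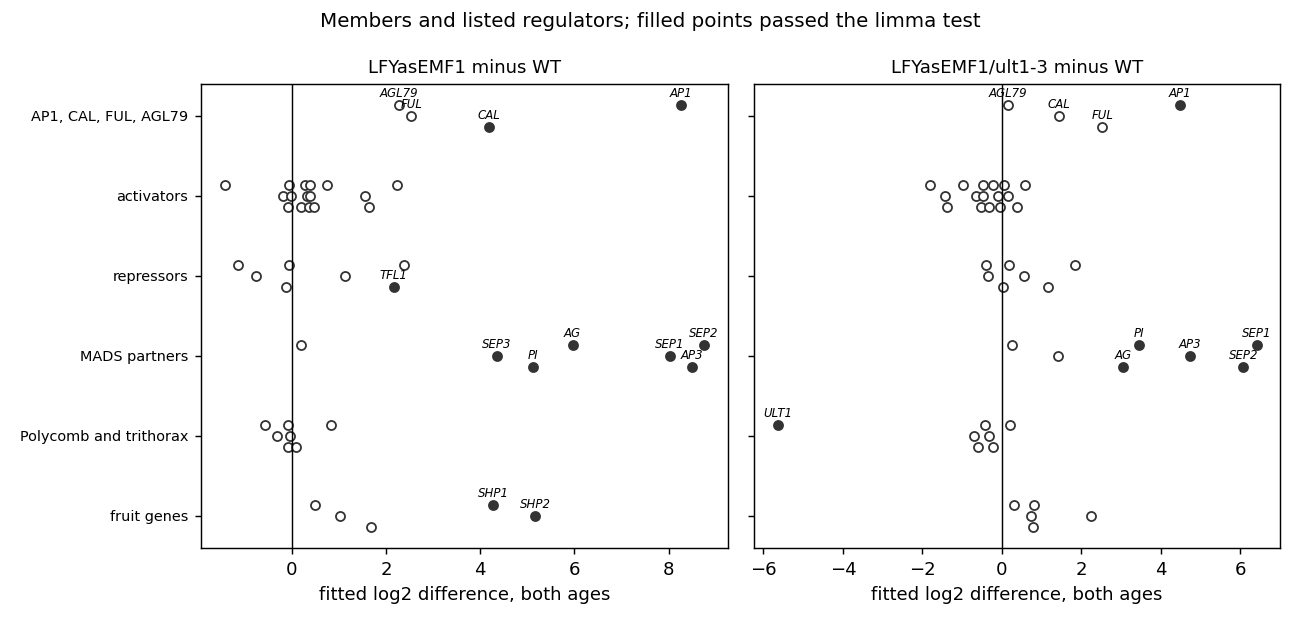
Fitted log2 difference from WT over both ages (x axis) for the 4 members and for listed regulators and partners (y axis), in LFYasEMF1 (left) and in LFYasEMF1/ult1-3 (right). Filled points passed the limma test and are named; in LFYasEMF1 6 of 7 MADS partners lie to the right of 4 and none of the activators is filled, and both panels share the WT arrays.

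In ult1-3 alone none of the 4 members passed the test against WT. Log2 differences over both ages were −0.20 (95% interval −1.96 to 1.57) for AP1, −0.68 (−1.67 to 0.32) for CAL, 0.82 (−1.47 to 3.12) for FUL and 0.33 (−0.81 to 1.47) for AGL79. Adjusted p-values from limma ran from 0.933 to 0.980, where 0.0626% of genes were called. AP1, CAL and AGL79 were at background on both ult1-3 arrays, so a fall below WT could not have been measured. FUL, which was measured on both, lay 0.25 below the WT array of its slide at 7 days and 0.55 below at 15 days. ULT1 was 2.06 lower on the log2 scale in ult1-3 (limma adjusted p = 0.300) and fell by 5.65 in the combined line (limma adjusted p = 0.000274).

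The combined line was compared with WT and with each of its parent genotypes; the first of these comparisons shares its WT arrays with those above. AP1 was at least 9.89-fold higher in LFYasEMF1/ult1-3 than in WT, with a fitted log2 difference of 4.50 ± 0.76, at the edge of the threshold (limma adjusted p = 0.0495). So 1 of 4 members was called, where 0.34% of genes were called higher and 0.81% in either direction. The call was lost with slide as a term, where the difference was 4.87 ± 0.85 (adjusted p = 0.0618), and in 9 of 10 fits that left out 1 array, with differences from 3.58 to 5.42. Against the WT array of its slide, AP1 in LFYasEMF1/ult1-3 was 4.66 higher at 7 days and 5.08 higher at 15 days. The WT arrays of both slides were at background for AP1, so these differences are not measured folds.

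CAL differed from WT in the combined line by 1.43 ± 0.43 (95% interval 0.44 to 2.43; limma adjusted p = 0.208) by the probe used, and by −0.06 ± 0.53 (adjusted p = 0.966) by the other probe. FUL differed by 2.53 ± 0.99 (limma adjusted p = 0.281), and by 1.31 ± 0.57 with slide as a term (adjusted p = 0.207). The same-slide differences of FUL were 1.12 at 7 days and 1.51 at 15 days. A fit within slides 2 and 3 gave 1.31 ± 0.25, which did not pass (limma adjusted p = 0.0899). WT replicates of an age lie on different slides, so their spread does not gauge a difference within a slide. AGL79 was at background on both arrays of the combined line, with a difference of 0.16 ± 0.49 (limma adjusted p = 0.895). AP1 and CAL did not overlap with WT, an outcome that 9.14% of genes shared with the combined line higher.

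Set directly against LFYasEMF1, the combined line had lower levels of AP1, CAL and AGL79, and none of these differences passed the test. AP1 was 13.6-fold lower, with a log2 difference of −3.77 ± 0.88 (95% interval −5.81 to −1.74; limma adjusted p = 0.0957). CAL was 6.76-fold lower, by −2.76 ± 0.50 (−3.91 to −1.61; limma adjusted p = 0.0565), and its other probe by −3.16 ± 0.61 (adjusted p = 0.0696). The CAL probe used was well above background on 1 of the 2 combined-line arrays, and the other probe on neither. AGL79 differed by −2.12 ± 0.57 (limma adjusted p = 0.126), and FUL by −0.01 ± 1.14 (−2.66 to 2.64; limma adjusted p = 0.998). AGL79 was at background on both combined-line arrays, which leaves a bound of only 1.02-fold over both ages and no bound at 15 days. Levels of AP1, CAL and AGL79 did not overlap between the lines, as in 21.3% of genes with the combined line lower, and 0.899% of genes were called in either direction.

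These lines share no slide, so the difference was also fitted with slide as a term, which sets each line against its own WT. The values were then −3.03 ± 1.20 for AP1 (adjusted p = 0.228), −2.59 ± 0.65 for CAL (adjusted p = 0.134), −2.54 ± 0.82 for AGL79 (adjusted p = 0.179) and −2.44 ± 0.80 for FUL (adjusted p = 0.180). The fitted difference of FUL thus went from −0.01 to −2.44, without passing in either fit. A floor under dim signals or another background correction moved the call for AP1 across the threshold, and the floor and the mean of both probes did so for CAL.

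Relative to ult1-3, AP1 was at least 5.59-fold higher in the combined line (log2 difference 4.69 ± 0.88, limma adjusted p = 0.138). CAL differed by 2.11 ± 0.50 (limma adjusted p = 0.342) by the probe used and by 0.65 ± 0.61 by the other probe. The probe used was at background on both ult1-3 arrays and well above it on 1 of 2 combined-line arrays, so no lower bound is given. FUL differed by 1.71 ± 1.14 and AGL79 by −0.17 ± 0.57 (limma adjusted p = 1.00 for both). No member was called, where 0.385% of genes were. The interaction of transgene and allele, which asks whether the joint effect departs from the sum of both on the log2 scale, takes the allele to act alike in ult1-3 and in the combined line, which the ULT1 levels do not show. AP1 was at background on all WT and ult1-3 arrays, and AGL79 on 3 of 4 WT arrays and on all those of ult1-3 and the combined line. CAL was well above background on 1 of 4 WT arrays, 0 of 2 ult1-3 arrays and 1 of 2 combined-line arrays. The values of AP1, CAL and AGL79 are therefore not bounds. The interaction was −3.57 ± 1.16 for AP1 (limma adjusted p = 0.858), −2.08 ± 0.66 for CAL (adjusted p = 0.807), −0.83 ± 1.51 for FUL (adjusted p = 0.998) and −2.45 ± 0.75 for AGL79 (adjusted p = 0.779). None passed, where 0.139% of genes were called. Without 1 array the value of FUL ran from −2.31 to 0.65, so its sign was not fixed.

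**Figure D3:**
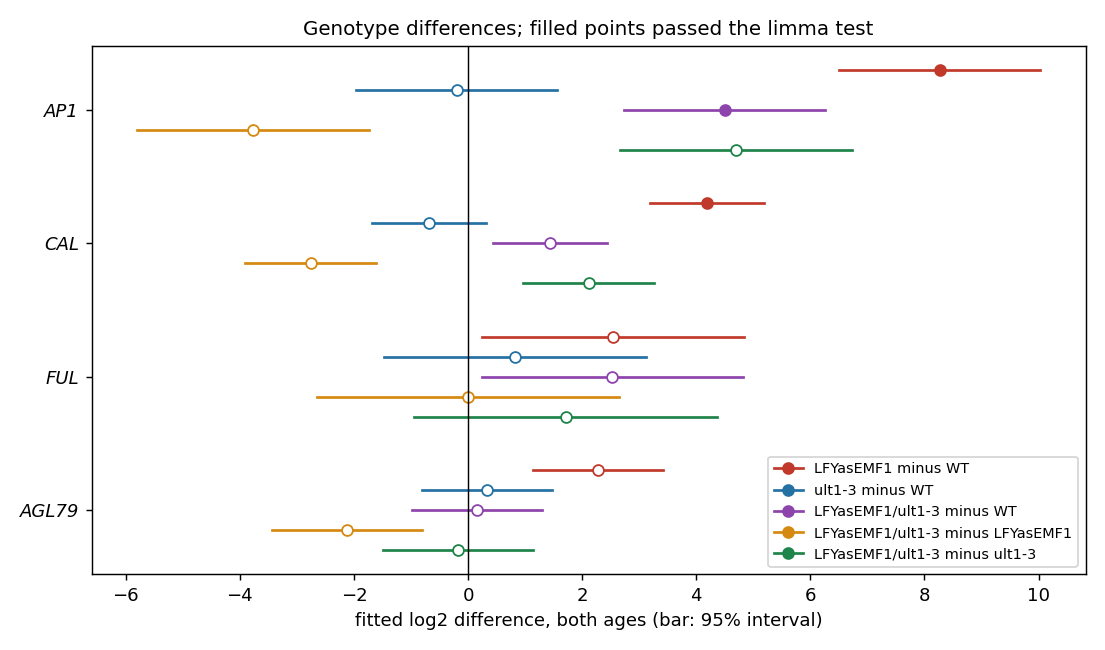
Fitted log2 difference over both ages (x axis, points) with its 95% interval (bars) for AP1, CAL, FUL and AGL79 (y axis) in 5 comparisons. Filled points passed the limma test: AP1 and CAL in LFYasEMF1 and AP1 in LFYasEMF1/ult1-3, both against WT.

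Most partners of AP1 followed a similar order of lines. SEP4 did not, at −2.31 and −1.07 in LFYasEMF1 and −2.41 and −0.83 in LFYasEMF1/ult1-3 at 7 and 15 days. Of the 7 MADS partners, 5 rose against WT in the combined line, with a median log2 difference of 3.45 where the median over all genes lay near 0. SEP1, another floral cofactor, was 85.4-fold higher and SEP2 67.9-fold, with 2 and 1 of 4 WT arrays measured, AP3 at least 12.4-fold, PI 10.9-fold and AG 8.26-fold. With slide as a term AP3 (adjusted p = 0.0675) and AG (adjusted p = 0.0556) did not pass. Against LFYasEMF1 none of the 7 was called, with a median of −2.66. The floral organ markers summed to 0.583 and 1.99 in LFYasEMF1/ult1-3, and to 0.090 and 0.363 in ult1-3, with 6 of 7 and 1 to 3 of 7 well above background. The lowest level so marked was −6.73 and −7.16 on the ult1-3 arrays, against −7.74 and −8.59 on the WT arrays of their slides. Counts of marked genes in ult1-3 and WT are therefore not on equal terms. The part of these markers in the level of AP1 was not tested. Among 16 activators, none was called against WT. SPL3 was the 1 called against LFYasEMF1, 3.35 lower on the log2 scale (limma adjusted p = 0.0105), and was named after its value was seen; with slide as a term its adjusted p was 0.0574. SPL10, listed as a regulator of AGL79, differed from WT by −0.15 ± 0.37 in LFYasEMF1 and by −0.70 ± 0.37 in the combined line, with no call.

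**Figure D4:**
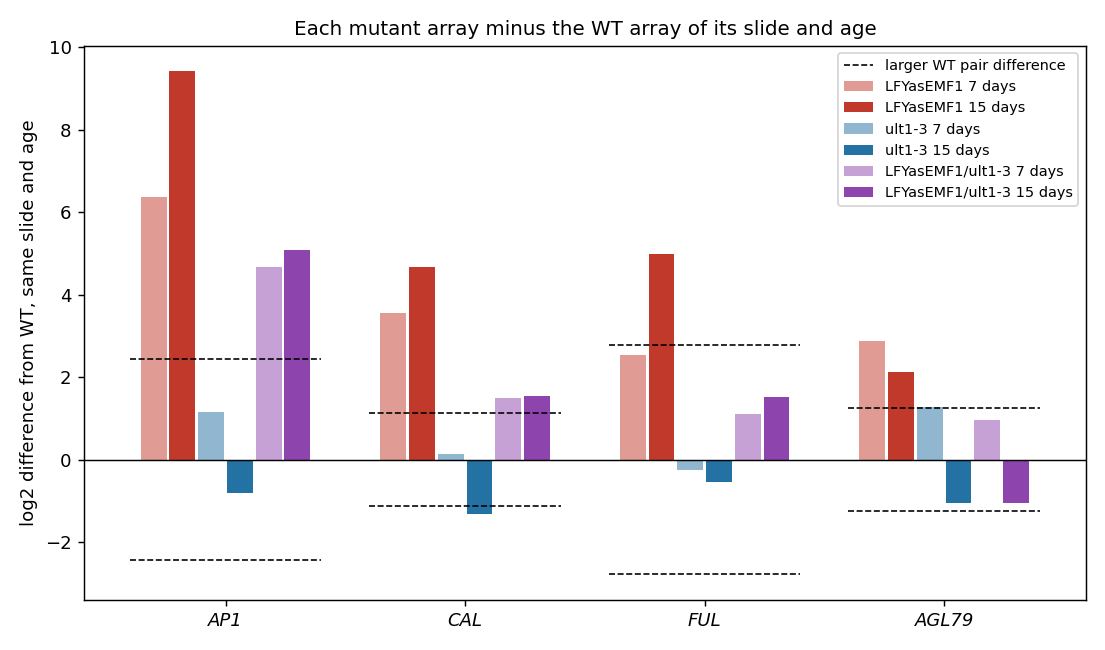
Log2 difference (y axis) of each mutant array from the WT array of the same slide and age, for the 4 members (x axis), pale bars at 7 days and full bars at 15 days. Dashed lines mark the larger difference between WT replicates of an age, which lay on different slides and were read mostly at background as well. Differences of AP1, CAL and AGL79 rest on WT signals mostly at background.

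Age was the last comparison. FUL was higher at 15 than at 7 days in 5 of 5 pairs of arrays: by 1.93 and 1.23 on the log2 scale in the WT replicates, 0.93 in ult1-3, 1.62 in LFYasEMF1/ult1-3 and 4.38 in LFYasEMF1. How many of all genes were higher in 5 of 5 pairs was not counted, so this count alone does not set FUL apart. The WT pairs are joined by replicate number, which marks no stated pairing, and the WT ages overlap: replicate 1 at 15 days, at −6.04, lies below replicate 2 at 7 days, at −5.18. In 3 of the 5 pairs, all but WT replicate 1 and LFYasEMF1, age also sets slide 3 against slide 2. The difference in LFYasEMF1 is 20.8-fold, and the other FUL probe gave 18.5-fold. Over all genotypes FUL differed between ages by 2.02 ± 0.72 (limma adjusted p = 0.125; 4.05-fold), where 8.29% of genes were called. With slide as a term the age difference rested on slide 1 alone, because slide 2 held only 7-day arrays and slide 3 only 15-day arrays. It was then 3.15 ± 0.57, set by WT replicate 1 (1.93) and LFYasEMF1 (4.38), and passed (limma adjusted p = 0.0490). A fit of the slide 1 arrays alone gave the same 3.15 with an error of 0.61 and did not pass (limma adjusted p = 0.0858). With slide 1 against the others as the term the difference was 2.02 ± 0.49 and passed (limma adjusted p = 0.0391). In WT alone FUL differed by 1.58 ± 1.08 (limma adjusted p = 1.00), and no gene was called, with 813 at an unadjusted p under 0.05. The extra change of FUL in LFYasEMF1 over that in WT, 2.80 ± 1.87, did not pass (limma adjusted p = 1.00), nor did the change of any member in any line; no gene of 22353 passed that test in LFYasEMF1, and 374 had an unadjusted p under 0.05.

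AP1 was higher at 15 days by 1.02 in LFYasEMF1 and by 1.78 in LFYasEMF1/ult1-3, the lines where it was measured at both ages. CAL was higher by 0.45 in LFYasEMF1, and AGL79 was lower by 0.74 there (log2 difference −0.74). Over all genotypes the age differences were 0.31 ± 0.55 for AP1, 0.42 ± 0.31 for CAL and −0.03 ± 0.36 for AGL79, with limma adjusted p-values from 0.435 to 0.975.

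Of the 16 activators, 4 were called higher and 1 lower at 15 days, where 2.96% of all genes were called higher and 5.34% lower; they were named after their values were seen. FT was among the 4 called higher. No fold is given for FT, because in ult1-3 it was at background at both ages (−8.56 and −8.06) and no rise was measured there. SOC1, a MADS factor that integrates flowering signals, was 4.53-fold higher, AGL24 9.01-fold and SPL3 7.79-fold. PUCHI, a factor that acts with LFY on floral meristems, was 4.22-fold lower. With slide as a term, which again reads age on slide 1 alone, FT (limma adjusted p = 0.0801) and PUCHI (limma adjusted p = 0.0697) did not pass. FT lay at −4.90 and −4.83 in WT at 15 days, −0.32 in LFYasEMF1, −8.06 in ult1-3 and −3.92 in LFYasEMF1/ult1-3. LFYasEMF1 was thus the highest 15-day array for FT and for FUL, as it was for AP1, CAL and AGL79 and for SOC1, AGL24, SPL3 and PUCHI. The lowest 15-day array was ult1-3 for FT and WT replicate 1, at −6.04, for FUL. A link between FT and FUL was not tested.

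**Figure D5:**
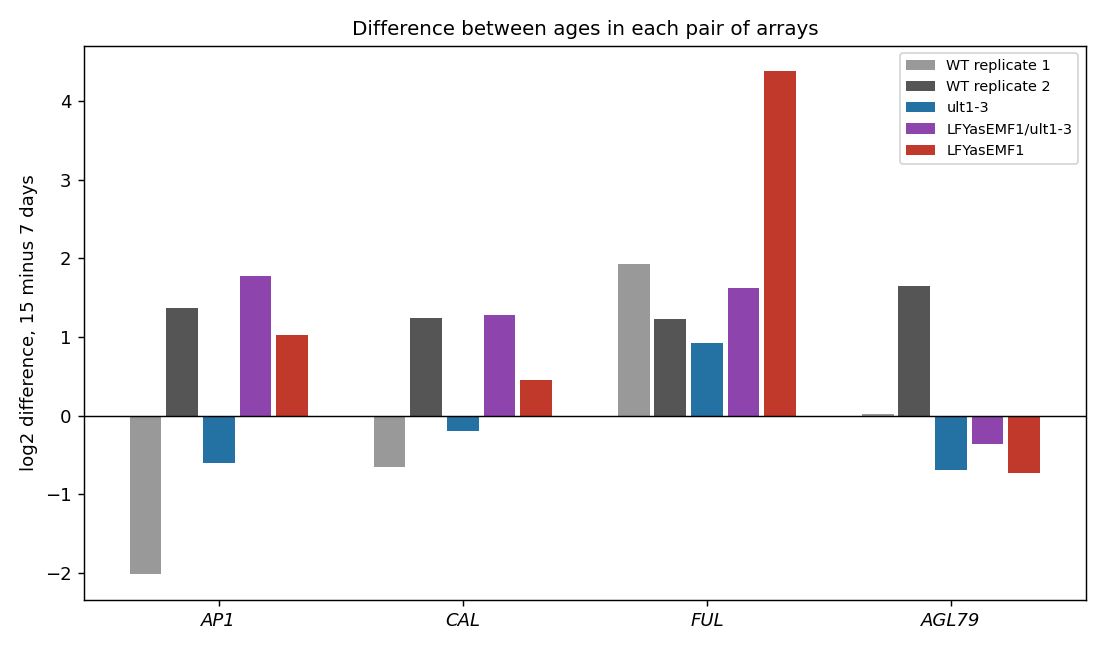
Log2 difference between 15 and 7 days (y axis) for AP1, CAL, FUL and AGL79 (x axis) in each of 5 pairs of arrays, WT replicates 1 and 2, ult1-3, LFYasEMF1/ult1-3 and LFYasEMF1. FUL is above 0 in 5 of 5 pairs, from 0.93 to 4.38; bars of AP1, CAL and AGL79 in WT and ult1-3 rest mostly on signals at background.

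Across the 10 arrays AP1 and CAL ran closely together. Pearson's r of their log2 levels was 0.97, which made CAL the third most similar of 21317 genes to AP1, and AP1 the second most similar to CAL. The r with AGL79 was 0.74 for AP1 and 0.80 for CAL. FUL gave 0.56 with AP1, 0.53 with CAL and 0.35 with AGL79. These values describe 10 arrays that share genotypes, ages and slides, and for AP1 and CAL they are set by the few arrays above background.

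The genes most like AP1 were AT3G49770 and AT4G15970 (r = 0.98 and 0.97), CAL, AP3 (0.96) and AT1G07380 (0.96). For CAL they were AT4G15970 (0.99), AP1, BGLU43 (0.97), AT1G07380 (0.96) and SHP2 (0.96), so AT4G15970 and AT1G07380 stood in both lists. FUL had other neighbours, ERS (0.96), AT3G58000 (0.94), AT4G35360 (0.93), ACR1 (0.93) and MYB47 (0.93). For AGL79 the list was AT1G64255 (0.99), AT1G36920 (0.94), MEO (0.92), AT3G46190 (0.92) and AT1G48150 (0.91), none of which was shared with another member; AGL79 was well above background on 3 of 10 arrays, so these values rest mostly on background signals.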

How the data were processed

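Labelled RNA of 1 sample was hybridized per 1-colour array, per the labels. The submitters' processing notes name Agilent Feature Extraction 10.7.1.1. Its processed signal, an intensity, is linear and corrected for background and spatial trend but not normalized between arrays, per the file headers. Here each log2 level is the log2 of this signal over the 75th percentile of its array. Probes entered the tests if flagged well above background on 1 array or more, and a gene was its brightest probe, which left 22353 genes. The deposited value table, an intensity whose scaling is not given in the sources used here, served as an alternative. Loci and names came from a RefSeq table of TAIR10.1.

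Tests used limma 3.58.1 in R 4.3.3, with Benjamini-Hochberg adjustment over all genes at 0.05. Differences over both ages came from genotype plus age on 10 arrays (5 residual degrees of freedom), those at 1 age from 8 groups (2 degrees). The labels do not call replicates separate plantings, so p-values may reflect technical spread alone. A fold is "at least" where 1 group was nowhere well above background: each of its arrays then counts at the lowest signal well above background there, or at the probe's own signal if higher. Named genes were the members, the 5 genes most like each by Pearson's r, up to 5 called genes of each list, and LFY, EMF1, ULT1, FT and TFL1. Members, lists and tests were chosen with earlier results of these data known. Normexp used median signals with an offset of 50. Alternatives were slide terms, fits within slides, other normalizations, filters, floors, probe rules and variance models, and leaving out each array. Probe positions within genes were not used, so cross-hybridization between these paralogs was not examined.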

Additional observations from a re-analysis of the deposited data

How the results depend on the processing

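The filter that asked for 5 arrays well above background dropped AP1, CAL and AGL79, so of the members it tested FUL only. The 2 calls in LFYasEMF1 against WT over both ages, AP1 and CAL, held under every alternative that tested them. Their log2 differences ran from 5.51 to 8.86 and from 2.53 to 4.43. Leaving out each array in turn gave 1.83 to 2.72 for AGL79 in that comparison, and FUL reached 3.76 with slide as a term, AGL79 2.49 within slides; these passed, AGL79 also without WT 15 days replicate 2 (2.68). AP1 in LFYasEMF1/ult1-3 against WT lost its call with slide as a term, with slide 1 against the others and within slides (4.87 in each), with normexp (2.40), with the 8 group means and with every probe on its own (4.50 in both), and in 9 of 10 fits without 1 array (3.58 to 5.42, adjusted p up to 0.165); it kept it without WT 7 days replicate 1. Against LFYasEMF1, calls of the combined line were gained for AP1 with normexp (−3.11) and a floor (−3.77), and for CAL with a floor (−2.59) and the mean of its probes (−2.96). Against ult1-3, AP1 was gained with quantile normalization (5.27), with the deposited value table (5.20) and without WT 7 days replicate 1 (4.69; range without 1 array 3.78 to 5.61). FUL between ages was gained with slide as a term (3.15, read on slide 1 alone) and slide 1 against the others (2.02). No called value changed sign, and the causes were not tested.

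At single ages, AP1 in LFYasEMF1 at 15 days lost its call with quantile normalization (9.02), with the value table (9.0) and in 2 fits without 1 WT array (8.47 to 9.42), and gained one at 7 days with a floor (6.38) and in 2 fits without 1 WT array (6.38 to 8.81). CAL in LFYasEMF1 gained calls without WT 7 days replicate 1 at 7 days (4.68) and without either WT 7-day array at 15 days (4.27). AP1 in the combined line gained calls in the same fits (4.66 at 7 days and 5.55 at 15 days). Over all fits without 1 WT array, CAL ran from 3.55 to 4.68 at 7 days and from 3.88 to 4.66 at 15 days. The ranges for AP1 in the combined line were 2.23 to 4.66 and 5.08 to 6.03. With slide 1 against the others as a term, 1 residual degree of freedom was left and the calls rest on spread borrowed from all genes: AP1 7.22, CAL 4.03 and AGL79 3.27 in LFYasEMF1 at 7 days, CAL 4.19 and FUL 5.16 at 15 days, AP1 3.81 and 5.92 in the combined line at 7 and 15 days, and FUL −3.82 against LFYasEMF1 at 15 days.

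Counts of called genes, behind each percentage of genes called, varied more. For LFYasEMF1 against WT the count was 375, 155 with the 8 group means and 181 to 563 without 1 array. For ult1-3 it was 14, with 8 under slide as a term and under a floor, 7 with the 5-array filter, 5 within slides, with normexp and with the 8 group means, and 5 to 17 without 1 array. For LFYasEMF1/ult1-3 against WT it was 181, with 327 under slide as a term, 78 with normexp, 68 with the 8 group means and 120 to 230 without 1 array. Against LFYasEMF1 it was 201, with 67 and 63 under the slide terms, 81 with normexp, 24 with the 8 group means and 45 to 293 without 1 array; against ult1-3 it was 86, with 41, 24 and 23 to 78 under the last 3 of these. The interaction had 31, with 11 under normexp, 0 under the 8 group means (695 genes at an unadjusted p under 0.05 in limma) and 13 to 55 without 1 array. Age had 1854, with 829 under slide as a term, 3335 under slide 1 against the others, 1142 with normexp, 0 within slides and with the 8 group means (4787 and 3568 at an unadjusted p under 0.05 in limma) and 9 to 2611 without 1 array.

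WT replicate numbers are shared by the ages but mark no stated pairing. With the replicate block, age in WT called 235 genes against 0 without it (813 at an unadjusted p under 0.05 in limma), and FUL differed by 1.58 (adjusted p = 0.327); without 1 array the count was 0 to 40. With 4 WT arrays and single mutant arrays, small differences of these dim genes were not detectable, and falls from a WT level at background could not be measured.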
